A study of Homo sapiens with 12 samples.

Results

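The genes described are 41 cadherins, catenins and desmosome and adherens junction proteins, out of the 38434 named genes in the deposited tables. Beta-catenin (CTNNB1) is neither in this list nor in the further lists below, so it was not examined. The 41 genes were chosen by symbol, as members of these protein families, and all 41 were present in the tables of both cell lines. The choice was made with earlier results of these data known, so shares of the list set against all genes are descriptive. Their mRNA was followed in the lines LK-2 and RERF-LC-AI, established human lines labelled as lung squamous cell carcinoma (LUSC), after re-expression of maspin, a serpin encoded by SERPINB5 that both lines express at a low level or not at all. There were 4 groups of 3 libraries: LK2-ctrl and LC-AI-ctrl carried a lentiviral vector with ZsGreen, a green fluorescent marker, and LK2-maspin and LC-AI-maspin carried maspin together with ZsGreen. All 4 groups therefore share the ZsGreen vector and blasticidin selection, and each is a pool of resistant clones. LK-2 cells were grown in RPMI1640 and RERF-LC-AI cells in Eagle's minimum essential medium. The promoter that drives maspin, and whether the 3 libraries of a group came from separate cultures, could not be read from the sources used here, and the p-values measure only how far these libraries spread, which may be technical.

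Cadherins are calcium-dependent receptors that hold neighbouring cells together by binding the same kind of molecule on the next cell. In adherens junctions their tails bind catenins, which connect them to actin, and nectins with their partner afadin form a parallel, immunoglobulin-based contact. In desmosomes the desmogleins and desmocollins bind plakoglobin and plakophilins, and desmoplakin ties this plaque to keratin filaments. Squamous epithelia are rich in desmosomes, and a change from E-cadherin to N-cadherin or to other mesenchymal cadherins is a known feature of carcinoma cells that have lost epithelial traits.

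The RERF-LC-AI libraries held 50143577 to 65454432 counts over named genes and those of LK-2 cells 39802246 to 54941357. SERPINB5 stood at 1.90, 1.89 and 1.70 CPM (read counts scaled to library size) in LK2-ctrl and 47.2, 47.4 and 44.8 CPM in LK2-maspin, and at 0.291, 0.154 and 0.216 CPM in LC-AI-ctrl and 551, 516 and 470.3 CPM in LC-AI-maspin, in the order of replicates 1, 2 and 3, which is kept for all values below. The maspin groups were thus above their controls in every library, and the level reached differed widely between the lines. The squamous label was only partly borne out by 6 squamous markers (TP63, SOX2, KRT5, KRT6A, KRT14, KRT17). In RERF-LC-AI cells none of the 6 exceeded 1 CPM on average and their sum was 1.65 to 1.96 CPM in LC-AI-ctrl and 1.64 to 2.24 CPM in LC-AI-maspin, whereas 4 mesenchymal markers (VIM, ZEB1, ZEB2, FN1) summed to 1938 to 2123 and 1834 to 2014 CPM. LK-2 cells had SOX2 (474 to 530.4 CPM in LK2-ctrl), but TP63, the master regulator of squamous cells, was at 0.731 to 1.56 CPM, and the mesenchymal markers summed to 13.4 to 17.03 CPM. Simple epithelial markers (EPCAM, KRT8, KRT18, KRT19) were present in both lines, with sums of 2098 to 2231 CPM in LC-AI-ctrl and 1584 to 1653 CPM in LK2-ctrl. Of these, EPCAM was low in LC-AI-ctrl, at a mean of 5.42 CPM against 536 CPM in LK2-ctrl. Endothelial (3 genes) and immune markers (3 genes) summed to at most 5.97 and 1.64 CPM in any library. In bulk RNA, fewer cells expressing a gene and less RNA of it per cell cannot be told apart.

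The lines differed in how much of this gene set they used. A mean above 10 CPM was reached by 23 of the 41 genes in LK2-ctrl and by 17 in LC-AI-ctrl, and a mean above 100 CPM by 11 and 6. The other extreme was 9 genes at or below 1 CPM in LK2-ctrl and 14 in LC-AI-ctrl. To compare one gene with another, CPM was divided by the length of the MANE Select transcript, the reference transcript of each gene, and such levels are given as CPM per kb. The highest levels per kb were those of PERP in LK2-ctrl, at 177 ± 12.2 CPM per kb (SD, n = 3), and of CTNNA1 in LC-AI-ctrl, at 122 ± 3.09 CPM per kb.

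**Figure D1:**
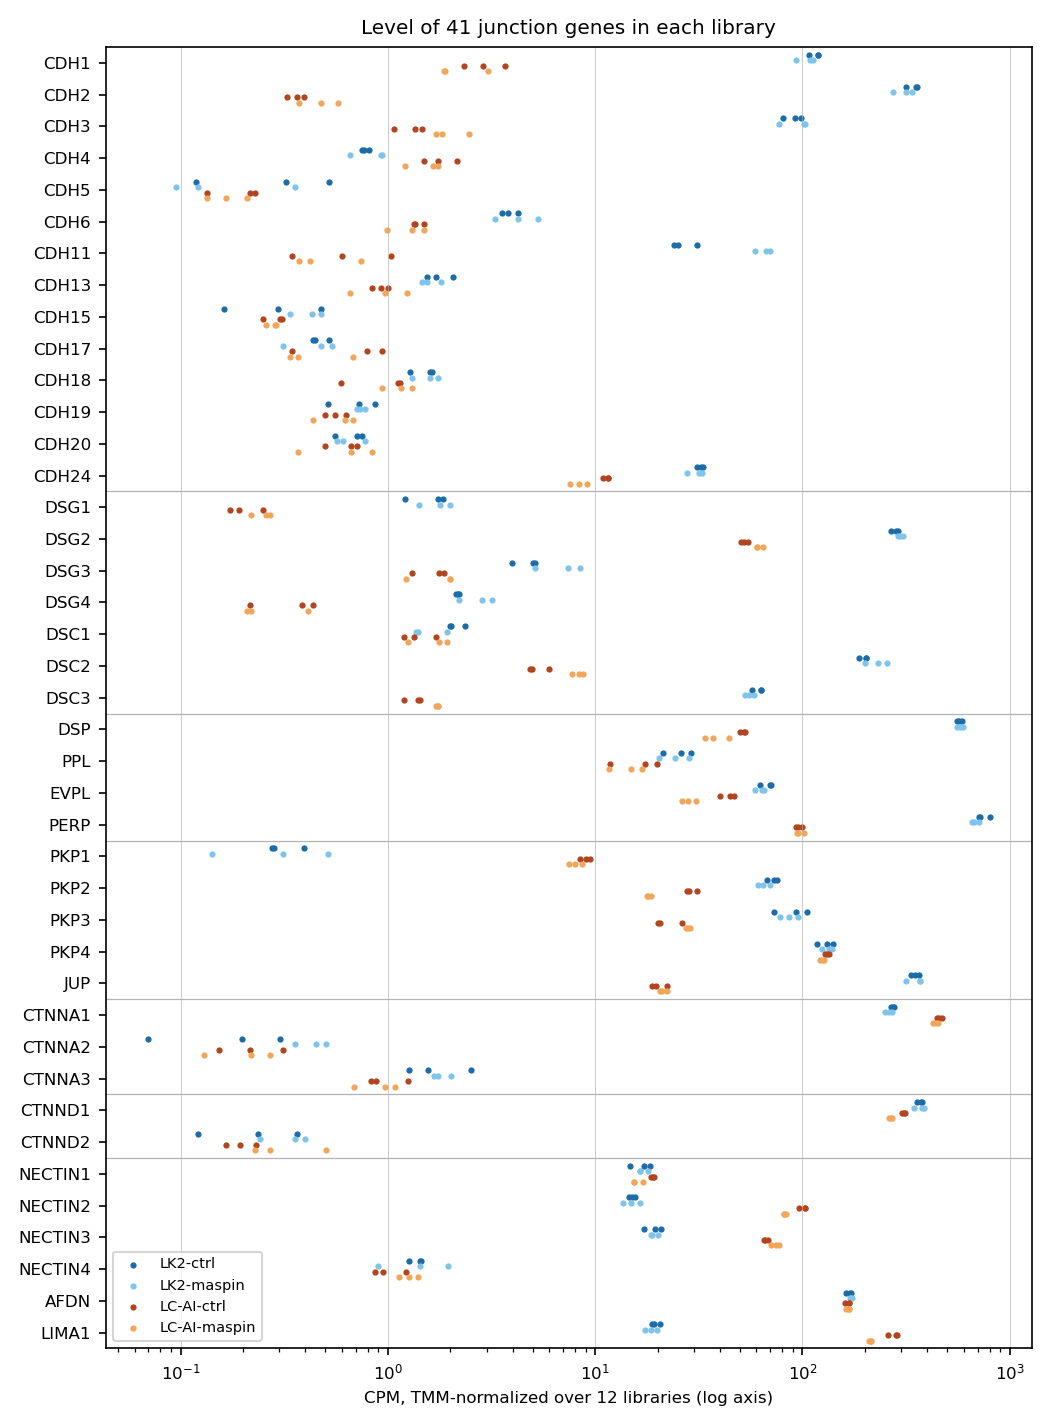
Level of each of the 41 genes in each of the 12 libraries, in CPM on a log axis, with 1 point per library coloured by group and thin lines between the gene classes. The points of LK2-ctrl and LK2-maspin lie together for most genes, with CDH11 set apart (24.0 to 31.0 against 59.2 to 69.9 CPM), and most classical and desmosomal cadherins lie far lower in the RERF-LC-AI libraries.

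The control cells of the lines were compared first, to show which junction genes each line had before maspin. LK2-ctrl had far more mRNA of the classical cadherins CDH1, CDH2 and CDH3, of CDH11, of the desmosomal cadherins and of plakoglobin and desmoplakin, while LC-AI-ctrl had more of LIMA1, NECTIN2, NECTIN3, PKP1 and CTNNA1. In edgeR's quasi-likelihood F test over all 12 libraries, 24 of the 41 genes were higher in LK2-ctrl and 6 were higher in LC-AI-ctrl (adjusted p < 0.05 over all genes tested). Of all 28123 genes tested, 61.9% passed the test, 31.4% higher in LK2-ctrl and 30.5% higher in LC-AI-ctrl, so that a difference between the lines is common, and the 30 junction genes that passed were 73.2% of their list, with 58.5% in the first direction and 14.6% in the second. Beyond 4-fold, 13 of the 41 were higher in LK2-ctrl and 3 higher in LC-AI-ctrl, against 8.51% and 7.06% of all genes. The libraries of the groups did not overlap for 32 of the 41 genes (78.0%) and for 66.4% of all genes. Among genes with a mean above 10 CPM, 20 of 23 junction genes (87.0%) passed, against 84.8% of all such genes. Line, medium, sequencing and table cannot be told apart here. The median difference over all genes was 0.12 on the log2 scale, and it was 0.34 when libraries were scaled by their totals alone, when AFDN, PKP4 and NECTIN4 were called higher in LK2-ctrl as well, so differences of this size depend on the scaling.

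**Figure D2:**
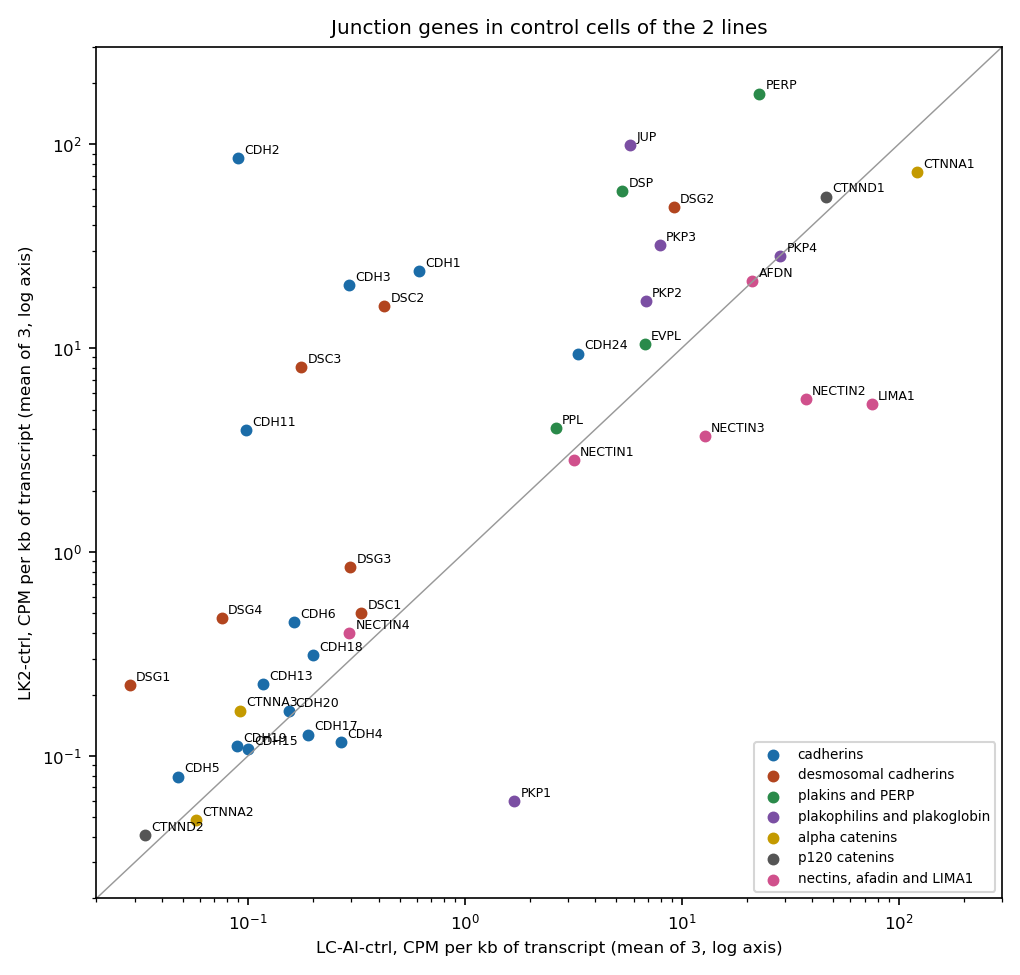
Level of each of the 41 genes in LC-AI-ctrl (horizontal) and LK2-ctrl (vertical), in CPM per kb of transcript on log axes, with 1 point per gene at the mean of 3 libraries, coloured by class, and a line of equal level. CDH2 lies farthest above the line, with 85.2 against 0.0904 CPM per kb, and PKP1, LIMA1 and NECTIN2 lie farthest below it, while CTNND1, PKP4 and AFDN lie on or near it.

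Among the 14 cadherins, N-cadherin (CDH2), the cadherin of neural and mesenchymal cells, had the highest level per kb in LK2-ctrl and one of the lowest in LC-AI-ctrl. CDH2 was at 316, 354 and 356 CPM in LK2-ctrl and 273, 316 and 338 CPM in LK2-maspin, against 0.395, 0.327 and 0.367 CPM in LC-AI-ctrl and 0.476, 0.572 and 0.371 CPM in LC-AI-maspin. The ctrl groups differed by 9.87 ± 0.13 on the log2 scale (SE, adjusted p = 7.48e-22), the widest difference of the 41 genes, although the RERF-LC-AI level rests on 19, 17 and 17 counts. CDH2 made up 58.9% ± 0.556 of the summed cadherin level per kb in LK2-ctrl (SD, n = 3). E-cadherin (CDH1), the cadherin of epithelial cells, was at 108, 119 and 118 CPM in LK2-ctrl and 92.6, 109 and 112 CPM in LK2-maspin. In LC-AI-ctrl and LC-AI-maspin it was at 2.89, 2.33 and 3.67 and at 1.88, 1.87 and 3.04 CPM, 5.29 ± 0.15 lower on the log2 scale between the ctrl groups (adjusted p = 3.21e-17). LK-2 cells thus had both E-cadherin and N-cadherin mRNA, and RERF-LC-AI cells had little of either, although the mesenchymal markers above were high in the latter.

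P-cadherin (CDH3), the neighbour of CDH1 on chromosome 16 and a cadherin of basal epithelial cells, was at 80.2, 92.2 and 98.9 CPM in LK2-ctrl and 77.1, 103 and 102 CPM in LK2-maspin, and at 1.35, 1.08 and 1.47 CPM in LC-AI-ctrl. The ctrl groups differed by 6.13 ± 0.15 (log2, adjusted p = 5.78e-18). CDH11, the cadherin of osteoblasts and other mesenchymal cells, was 5.35 ± 0.21 higher in LK2-ctrl (log2, adjusted p = 5.56e-15). CDH2 and CDH11 were thus higher in the line whose mesenchymal markers were lower. Of the 14 cadherins, R-cadherin (CDH4) alone was called higher in LC-AI-ctrl. It was at 2.16, 1.75 and 1.49 CPM there, against 0.751, 0.816 and 0.769 CPM in LK2-ctrl (log2 difference -1.21 ± 0.23, adjusted p = 1.20e-04). After maspin it was at 1.74, 1.65 and 1.21 and 0.934, 0.925 and 0.655 CPM, so its level was low throughout. Within the 14 cadherins, the highest level per kb in RERF-LC-AI cells was that of CDH24, a type II cadherin. It made up 58.0% ± 3.92 of their summed level in LC-AI-ctrl (SD, n = 3). CDH24 was nevertheless higher in LK2-ctrl (32.4, 30.9 and 33.0 CPM) than in LC-AI-ctrl (10.96, 11.5 and 11.6 CPM). The summed level of the 14 cadherins was 145 ± 8.34 CPM per kb in LK2-ctrl and 5.75 ± 0.346 CPM per kb in LC-AI-ctrl. The remaining 8 cadherins (CDH5, CDH6, CDH13, CDH15, CDH17, CDH18, CDH19 and CDH20) stayed at or below 5.30 CPM in every library, the highest being the kidney cadherin CDH6, and 3 of them (CDH6, CDH13, CDH18) were called higher in LK2-ctrl. The call of CDH18 was lost without LK2-ctrl replicate 1 (adjusted p = 0.0635), LK2-ctrl replicate 2 (0.0798) or LC-AI-ctrl replicate 2 (0.159).

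All 7 desmosomal cadherins, the desmogleins and desmocollins, were called higher in LK2-ctrl. Their genes form a cluster on chromosome 18, from DSC3 to DSG2 (chr18:30989365-31549008, GENCODE 44 on GRCh38), with the 3 desmocollins on the minus and the 4 desmogleins on the plus strand. DSG2, the desmoglein of simple epithelia and most other desmosome-bearing tissues, had the highest level per kb of the 7 in both lines, at 49.3 ± 1.96 in LK2-ctrl and 9.20 ± 0.367 CPM per kb in LC-AI-ctrl (SD, n = 3), or 65.3% and 87.3% of the class. By library, DSG2 was at 290.1, 284 and 268 CPM in LK2-ctrl and 52.0, 54.7 and 50.5 CPM in LC-AI-ctrl (2.42 ± 0.06 on the log2 scale, adjusted p = 4.67e-18). DSC2, the desmocollin found alongside it in simple epithelia, was at 188, 204 and 202 CPM in LK2-ctrl and 5.99, 4.94 and 4.83 CPM in LC-AI-ctrl (5.24 ± 0.10, adjusted p = 1.27e-19). DSC3, a desmocollin of stratified epithelia, was at 62.9, 63.1 and 57.1 CPM in LK2-ctrl and 55.2, 58.2 and 52.7 CPM in LK2-maspin. It was at 1.39, 1.19 and 1.42 CPM in LC-AI-ctrl and 1.74, 1.75 and 1.71 CPM in LC-AI-maspin, and the ctrl groups differed by 5.51 ± 0.10 (log2, adjusted p = 2.11e-20). The remaining 4 desmosomal cadherins, DSG1, DSG3, DSG4 and DSC1, which are largely those of skin and other stratified epithelia, did not exceed 8.48 CPM in any library. The call of DSC1 was lost without LK2-ctrl replicate 1 (adjusted p = 0.0724), LC-AI-ctrl replicate 1 (0.0692) or LC-AI-ctrl replicate 2 (0.0954).

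Among the armadillo proteins of the desmosome, plakoglobin (JUP), which binds the tails of both desmosomal and classical cadherins, led in LK-2 cells and PKP4 led in RERF-LC-AI cells. JUP was at 334, 348 and 364 CPM in LK2-ctrl and 316, 368 and 369 CPM in LK2-maspin, against 22.2, 18.9 and 19.6 CPM in LC-AI-ctrl and 20.5, 20.9 and 22.3 CPM in LC-AI-maspin. The ctrl groups differed by 4.11 ± 0.08 on the log2 scale (adjusted p = 1.41e-19). PKP4, a plakophilin relative found at both kinds of junction, was at 141, 131 and 117 CPM in LK2-ctrl and 128, 134 and 131 CPM in LC-AI-ctrl, overlapping ranges with a log2 difference of -0.01 (95% interval -0.15 to 0.12). In the maspin groups PKP4 was at 139, 135 and 124 and 122, 127 and 124 CPM. PKP1, the plakophilin of the upper layers of stratified epithelia, went the other way from the listed desmosome genes other than PKP4. It was at 9.03, 9.42 and 8.50 CPM in LC-AI-ctrl and 7.49, 8.60 and 8.03 CPM in LC-AI-maspin against 0.395, 0.278 and 0.283 CPM in LK2-ctrl and 0.311, 0.142 and 0.516 CPM in LK2-maspin (-4.81 ± 0.22, adjusted p = 1.27e-13). PKP2 and PKP3 were 1.31 ± 0.07 and 2.02 ± 0.12 higher in LK2-ctrl.

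PERP, a membrane protein of desmosomes and a target of p53, had the highest level per kb of the plakins and PERP in both lines, at 803, 722 and 708 CPM in LK2-ctrl and 715, 673 and 659 CPM in LK2-maspin, and 94.8, 99.9 and 92.9 CPM in LC-AI-ctrl and 94.7, 101 and 95.6 CPM in LC-AI-maspin. Desmoplakin (DSP) was 3.48 ± 0.08 higher in LK2-ctrl on the log2 scale (adjusted p = 1.17e-18). Differences were smaller for envoplakin (EVPL, 0.63 ± 0.08) and periplakin (PPL, 0.64 ± 0.17), plakins that pair in the cornified envelope of squamous cells. The actin side of the adherens junction differed least or in the other direction. Alpha-E-catenin (CTNNA1), the actin-binding catenin of epithelia, was at 273, 277 and 269 CPM in LK2-ctrl and 249.9, 262 and 271 CPM in LK2-maspin, and higher in LC-AI-ctrl (457, 470.5 and 447 CPM) and LC-AI-maspin (439.7, 452 and 425 CPM), a log2 difference of -0.75 ± 0.05 between the ctrl groups (adjusted p = 1.11e-10). p120 catenin (CTNND1), which binds cadherin tails and keeps cadherins at the membrane, was at 358, 374 and 377 CPM in LK2-ctrl and 347, 385 and 376 CPM in LK2-maspin, only 0.26 ± 0.05 above LC-AI-ctrl. The neural and muscle relatives CTNNA2, CTNNA3 and CTNND2 reached at most 2.53 CPM in any library, and CTNNA3, called higher in LK2-ctrl, lost this call without LK2-ctrl replicate 3 (adjusted p = 0.107).

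The alpha-catenins, with a sum of 122 ± 3.07 CPM per kb in LC-AI-ctrl against 73.0 ± 1.07 in LK2-ctrl, and the nectins with their actin partners were the classes whose sums were higher in RERF-LC-AI cells. The nectins, afadin and LIMA1 had a sum of 149.9 ± 3.26 CPM per kb in LC-AI-ctrl against 39.2 ± 1.32 in LK2-ctrl (SD, n = 3). LIMA1 (EPLIN), an actin-bundling protein that joins alpha-catenin to actin, was the highest of the class per kb in RERF-LC-AI cells, with 259, 284 and 287 CPM in LC-AI-ctrl against 19.2, 20.6 and 18.8 CPM in LK2-ctrl and 18.6, 17.4 and 19.96 CPM in LK2-maspin (-3.82 ± 0.07, adjusted p = 4.74e-20). NECTIN2, which is also a ligand of immune receptors, was at 103, 95.8 and 103 CPM in LC-AI-ctrl, 14.6, 15.04 and 15.5 CPM in LK2-ctrl and 13.6, 14.9 and 16.4 CPM in LK2-maspin (-2.74 ± 0.07, adjusted p = 1.23e-17). For NECTIN3 the levels were 65.7, 67.9 and 65.5 CPM in LC-AI-ctrl, 19.4, 20.8 and 17.3 CPM in LK2-ctrl and 18.7, 20.2 and 18.9 CPM in LK2-maspin (-1.79 ± 0.07, adjusted p = 1.31e-14). These 3 genes did not overlap between the lines in any library. Afadin (AFDN), which links nectins to actin, was the highest of the class per kb in LK2-ctrl and nearly level in all groups, at 169, 171 and 162 CPM in LK2-ctrl, 174, 172 and 169 in LK2-maspin, 167, 168 and 160.5 in LC-AI-ctrl and 167, 167 and 162 in LC-AI-maspin. Its difference between the ctrl groups was 0.02 on the log2 scale, with a 95% interval of -0.09 to 0.13. NECTIN1, at 18.5, 17.3 and 14.7 CPM in LK2-ctrl, 17.9, 16.4 and 16.5 CPM in LK2-maspin and 19.2, 19.0 and 18.7 CPM in LC-AI-ctrl, and NECTIN4, at no more than 1.94 CPM in any library, were not called.

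Promoter sequence is shown for DSG2, the leading desmosomal cadherin, for CDH2, the gene with the widest difference toward LK-2 cells, and for LIMA1, the highest nectin-class gene of RERF-LC-AI cells, whose difference toward that line was exceeded by PKP1 alone (the window of PKP1 overlaps 54 exon bases and is not shown). The RefSeq table (GRCh38.p14) held 25 of the 41 genes, with 41 start sites among them, and each sequence is the 250 bases just upstream of a start. Capitals mark the E-box letters CACCTG on either strand (read as CAGGTG on the printed strand where the match is on the other one), letters that the repressors ZEB1, ZEB2 and the SNAI family bind, and the AP-1 letters TGANTCA, of which none lies in these 3 windows. None of the 3 windows overlaps a GENCODE exon of its own gene, and that of CDH2 lies within an intron of a longer transcript of the same gene. 
DSG2 chr18:31497927-31498176, plus strand: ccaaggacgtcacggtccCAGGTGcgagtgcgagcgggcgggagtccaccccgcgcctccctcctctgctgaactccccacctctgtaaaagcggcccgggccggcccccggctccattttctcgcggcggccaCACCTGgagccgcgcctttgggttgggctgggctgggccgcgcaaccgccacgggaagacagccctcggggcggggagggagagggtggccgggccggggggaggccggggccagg
CDH2 chr18:28177131-28177380, minus strand: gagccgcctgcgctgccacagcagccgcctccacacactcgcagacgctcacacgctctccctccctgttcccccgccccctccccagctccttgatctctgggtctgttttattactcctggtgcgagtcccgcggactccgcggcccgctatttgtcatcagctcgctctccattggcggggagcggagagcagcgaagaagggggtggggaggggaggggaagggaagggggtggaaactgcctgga
LIMA1 chr12:50283521-50283770, minus strand: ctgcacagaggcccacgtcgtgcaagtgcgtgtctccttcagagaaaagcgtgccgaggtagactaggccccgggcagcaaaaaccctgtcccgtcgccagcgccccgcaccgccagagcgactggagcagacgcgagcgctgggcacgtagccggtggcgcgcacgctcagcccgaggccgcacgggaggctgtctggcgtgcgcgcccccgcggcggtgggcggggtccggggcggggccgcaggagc
In these windows DSG2 holds 2 CACCTG matches, and CDH2 and LIMA1 hold none. CpG dinucleotides number 26, 17 and 33 in the 3 windows, against a median of 11 over the 35116 promoters of the same length. CDH2 and LIMA1 each have another start in the table, not shown, with 4 and 0 CpG, and TGANTCA occurs once at that of CDH2. CACCTG is found in 17.5% of those promoters and TGANTCA in 6.57%. Of the 41 start sites of the junction genes, 8 hold CACCTG (19.5%), a share near that of all promoters. Among them are those of DSP (2 matches), JUP (2, at 1 of its 2 starts), AFDN (4) and DSC2 (1 of its 2 starts). Of these windows with a match, that of DSP has 250 bases in exons of its own gene, that of JUP 233, that of DSC2 87 and that of AFDN 0. Such a match is a description of the letters and not of a site in use.

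In RERF-LC-AI cells maspin was accompanied by a mixed change of the desmosome and by lower mRNA of several adherens junction genes. The desmosomal cadherins DSG2 and DSC2 and the plakophilin PKP3 rose, while desmoplakin, PKP2 and envoplakin, on the cytoplasmic side of the desmosome, fell, as did CDH24, CTNND1, NECTIN1, NECTIN2 and LIMA1. NECTIN3 rose. Altogether 4 of the 41 genes were higher and 8 lower in LC-AI-maspin than in LC-AI-ctrl (edgeR quasi-likelihood F test, adjusted p < 0.05 over 25197 genes), or 29.3% of the list, against 10.5% of all genes tested, of which 4.01% were higher and 6.53% lower. Among genes with a mean above 10 CPM, 10 of 16 junction genes (62.5%) passed, against 21.3% of all such genes. Because the list was chosen with earlier results known, these shares describe it and do not test the protein families. The 3 libraries of each group did not overlap for 15 of the 41 genes (36.6%) and for 25.1% of all genes. The 12 called changes were at most 1.598-fold, and the median change was -0.06 on the log2 scale over the 41 genes and 0.01 over all genes.

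**Figure D3:**
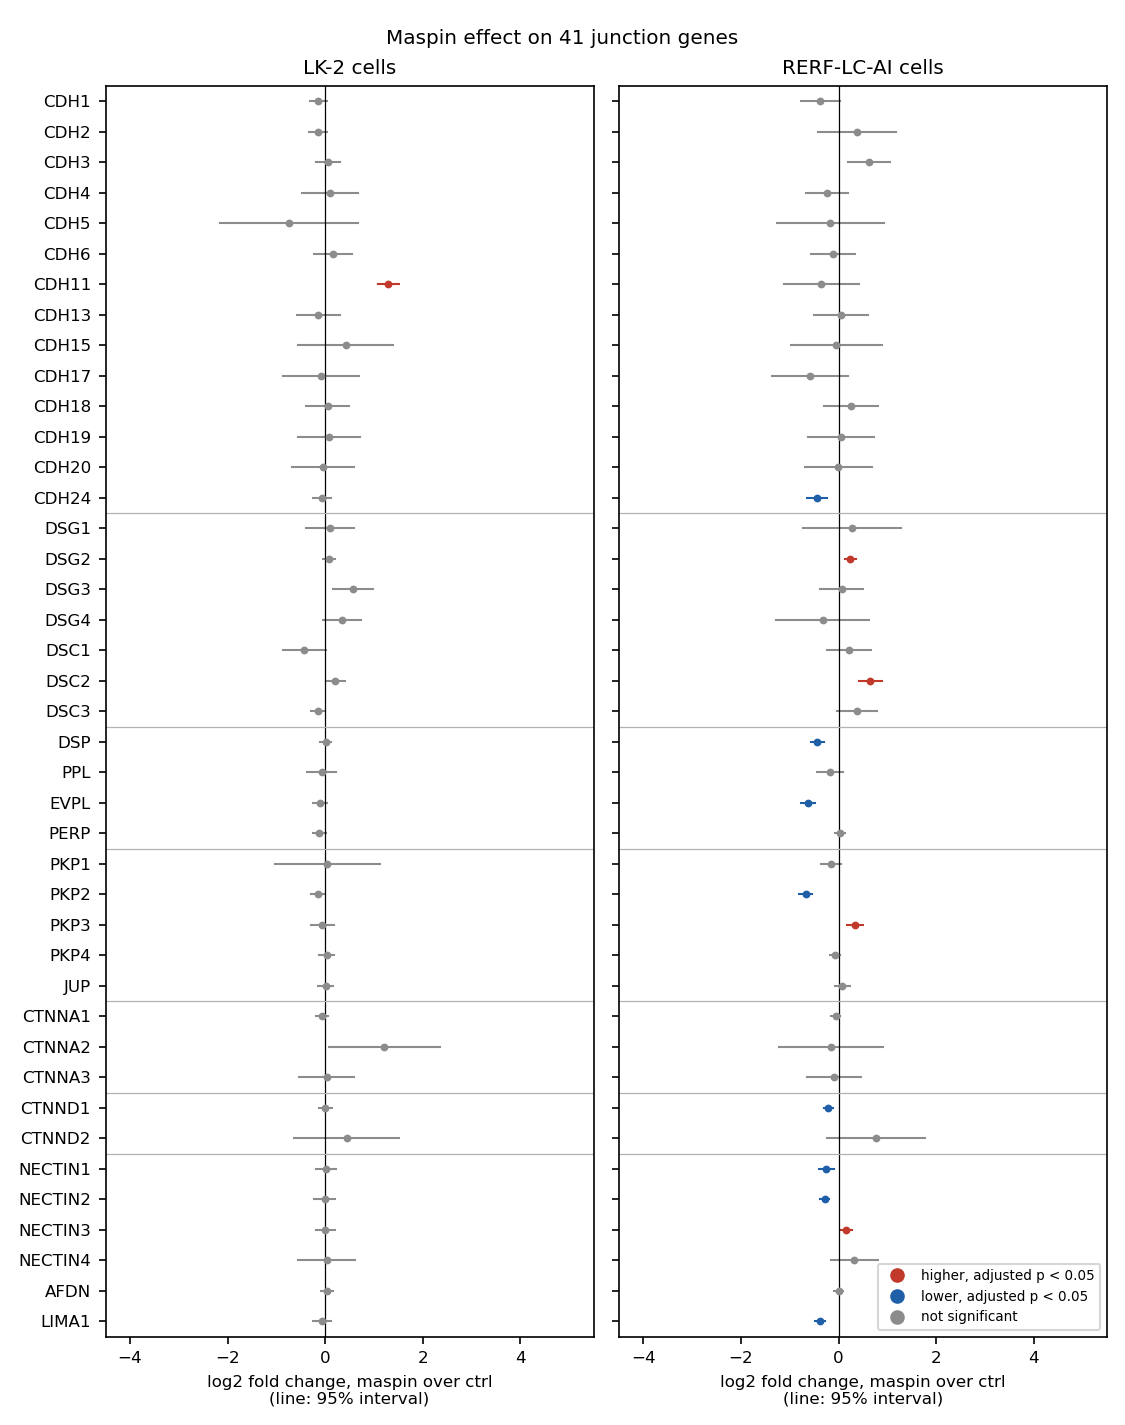
Log2 fold change of maspin over ctrl for each of the 41 genes, in LK-2 (left) and RERF-LC-AI cells (right), with the 95% interval as a line and genes grouped by class. In LK-2 cells CDH11 is the single coloured point, at 1.29, and in RERF-LC-AI cells 4 points lie to the right and 8 to the left, the largest at -0.68 (PKP2), 0.65 (DSC2) and -0.63 (EVPL).

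The desmosome showed both directions. DSC2 was at 5.99, 4.94 and 4.83 CPM in LC-AI-ctrl and 8.32, 7.73 and 8.70 CPM in LC-AI-maspin, with no overlap, and rose 1.57-fold (0.65 ± 0.12 on the log2 scale, SE, adjusted p = 2.02e-04). DSG2 was at 52.0, 54.7 and 50.5 CPM in LC-AI-ctrl and 64.8, 60.6 and 60.2 CPM in LC-AI-maspin, every maspin library above every control, and rose 1.18-fold (0.24 ± 0.05, adjusted p = 0.00276). These are the leading desmoglein and the leading desmocollin of the line, and the other 5 desmosomal cadherins were not called. DSC3, for example, was at 1.39, 1.19 and 1.42 CPM before and 1.74, 1.75 and 1.71 CPM after maspin, ranges that do not overlap, with an adjusted p of 0.291. The summed level of the 7 desmosomal cadherins was 10.2 to 10.9 CPM per kb in LC-AI-ctrl and 12.1 to 13.2 in LC-AI-maspin. PKP3, a plakophilin of simple and stratified epithelia, was at 26.2, 20.1 and 20.6 CPM in LC-AI-ctrl and 28.0, 28.6 and 27.3 CPM in LC-AI-maspin (0.33 ± 0.08, adjusted p = 0.00511). LC-AI-ctrl replicate 1 stood near the maspin libraries, and without LC-AI-ctrl replicate 3 the adjusted p of PKP3 was 0.0591.

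PKP2, the plakophilin of simple epithelia and heart (chr12:32790745-32896798, minus strand, 13 exons), showed the largest fall of the 41 genes. It was at 28.2, 27.6 and 31.0 CPM in LC-AI-ctrl and 18.0, 18.6 and 17.7 CPM in LC-AI-maspin, well apart, and fell by 0.68 ± 0.07 on the log2 scale (adjusted p = 4.41e-08), 1.598-fold. Envoplakin (EVPL, chr17:76004502-76027306, minus strand, 22 exons) was at 46.7, 39.9 and 44.8 CPM in LC-AI-ctrl and 30.6, 26.3 and 28.0 CPM in LC-AI-maspin, and fell by 0.63 ± 0.07 (adjusted p = 9.63e-08), 1.55-fold. Its partner periplakin (PPL) was at 19.9, 11.8 and 17.4 CPM and 16.9, 11.7 and 14.9 CPM, overlapping ranges (log2 change -0.17, 95% interval -0.44 to 0.09). Desmoplakin (DSP, chr6:7541338-7586714, plus strand, 24 exons), which ties desmosomes to keratin filaments, was at 52.7, 52.0 and 50.0 CPM in LC-AI-ctrl and 44.1, 36.9 and 33.9 CPM in LC-AI-maspin, and fell by 0.43 ± 0.07 (adjusted p = 4.92e-05). For PKP2, EVPL and DSP all 3 LC-AI-maspin libraries were below all 3 controls. Not called were PERP (0.02 ± 0.05), plakoglobin (0.07 ± 0.07), PKP1 (-0.16 ± 0.10) and PKP4 (-0.08 ± 0.05, with ranges that do not overlap), all on the log2 scale. Of 4 simple epithelial markers, the keratins KRT8, KRT18 and KRT19, which form the filaments that desmoplakin binds, also fell in LC-AI-maspin, by 0.48, 0.42 and 0.30, and EPCAM was not called, so that the sum of the 4 was 2098 to 2231 CPM in LC-AI-ctrl and 1535 to 1659 CPM in LC-AI-maspin. Of 5 fibroblast markers (COL1A1, COL1A2, DCN, LUM, PDGFRA), COL1A2 fell from 41.5, 28.0 and 26.2 CPM to 17.7, 14.98 and 16.6 CPM, by 0.96 ± 0.11 (adjusted p = 2.65e-07), and the sum of the 5 was 32.9 to 49.5 CPM in LC-AI-ctrl and 23.4 to 26.1 CPM in LC-AI-maspin. The part of these keratins and of COL1A2 in the result was not tested.

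**Figure D4:**
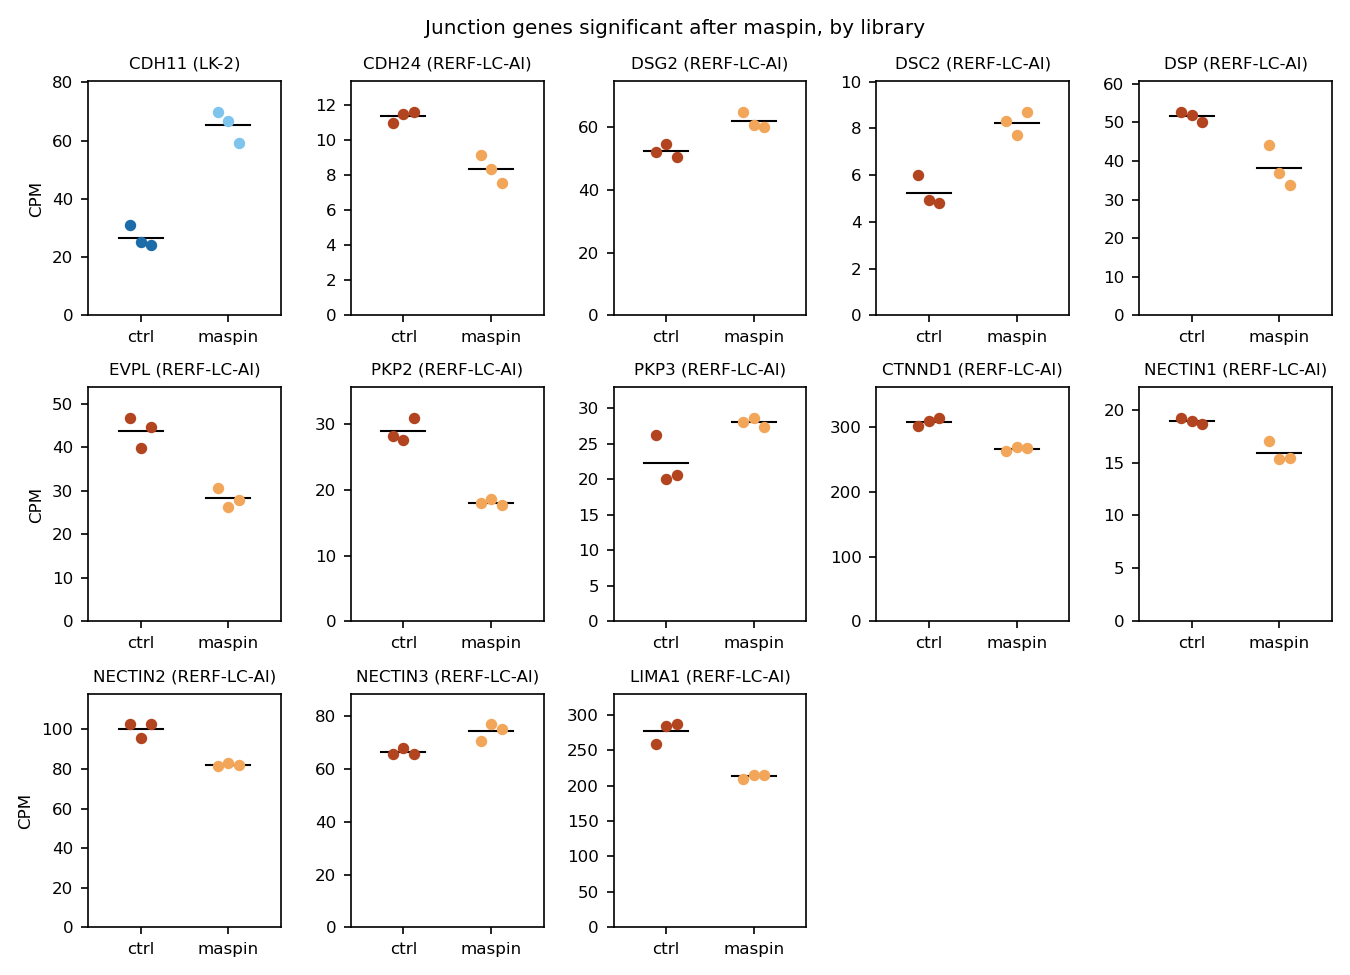
Level in CPM of the 13 genes called after maspin, in the line where they were called, with 1 point per library, a bar at the mean of 3 and axes that start at 0. CDH11 rises from 24.0 to 31.0 CPM in LK2-ctrl to 59.2 to 69.9 CPM in LK2-maspin, and in RERF-LC-AI cells no gene's ctrl and maspin points overlap, with the ranges of PKP3 close together (26.2 CPM in LC-AI-ctrl replicate 1 against 27.3 CPM in LC-AI-maspin replicate 3).

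Among the listed adherens junction genes, CDH24, CTNND1, LIMA1, NECTIN1 and NECTIN2 fell and NECTIN3 rose. The others of the list were not called. CDH24 (chr14:23047062-23057538, minus strand, 13 exons) had the highest level per kb of the 14 cadherins in RERF-LC-AI cells. It was at 10.96, 11.5 and 11.6 CPM in LC-AI-ctrl and 9.17, 8.35 and 7.56 CPM in LC-AI-maspin, and fell by 0.44 ± 0.10 on the log2 scale (adjusted p = 0.00224). The other 13 cadherins were not called, the nearest being CDH3, which was at 1.35, 1.08 and 1.47 CPM in LC-AI-ctrl and 2.46, 1.82 and 1.71 CPM in LC-AI-maspin, without overlap, with an adjusted p of 0.0578. For E-cadherin and N-cadherin the log2 changes were -0.38 (95% interval -0.78 to 0.03) and 0.38 (-0.41 to 1.18), wide intervals at levels of at most 3.67 CPM. p120 catenin (CTNND1) was at 302, 309 and 314 CPM in LC-AI-ctrl and 262, 269 and 267 CPM in LC-AI-maspin, and fell by 0.21 ± 0.04 (adjusted p = 0.00152). This is a small change in a tightly measured gene, and alpha-E-catenin (CTNNA1), at a similar precision, had a log2 value of -0.06 (95% interval -0.15 to 0.03). LIMA1 was at 259, 284 and 287 CPM in LC-AI-ctrl and 209.5, 215 and 215 CPM in LC-AI-maspin, and fell by 0.38 ± 0.05 (adjusted p = 1.95e-06), 1.30-fold.

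The nectins, the immunoglobulin-like receptors, split. NECTIN2 was at 103, 95.8 and 103 CPM in LC-AI-ctrl and 81.8, 83.1 and 81.9 CPM in LC-AI-maspin and fell by 0.29 ± 0.05 on the log2 scale (adjusted p = 1.13e-04). NECTIN1, a receptor that binds NECTIN3 on the next cell, was at 19.2, 19.0 and 18.7 CPM and 17.01, 15.3 and 15.5 CPM, and fell by 0.25 ± 0.08 (adjusted p = 0.0285). NECTIN3, with 65.7, 67.9 and 65.5 CPM in LC-AI-ctrl and 70.6, 76.9 and 74.9 CPM in LC-AI-maspin, rose by 0.16 ± 0.05 (adjusted p = 0.0373). The ranges did not overlap for any of these 3, but the calls of NECTIN1 and NECTIN3 were lost when single libraries were left out: without LC-AI-ctrl replicate 3 their adjusted p was 0.0745 and 0.167, and without LC-AI-maspin replicate 3 it was 0.142 and 0.164. Without LC-AI-ctrl replicate 1 it was 0.0653 and 0.0827, without LC-AI-maspin replicate 2 it was 0.126 and 0.144, and without LC-AI-ctrl replicate 2 that of NECTIN1 was 0.0522. Afadin, the partner of all nectins, had a log2 value of 0.00 (95% interval -0.09 to 0.10). USP2-AS1, whose exons overlap NECTIN1 on the other strand, was at 4.32 CPM in LC-AI-ctrl and 4.41 CPM in LC-AI-maspin on average, and the sources used here do not say whether counting used the strand. Of the called genes, DSG2, DSP and NECTIN2 also overlap exons of antisense genes, and CDH11, PKP2 and CTNND1 share exon bases with unnamed genes on their own strand, so reads of these could have been split by the counting.

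In LK-2 cells 1 of the 41 genes was called after maspin, or 2.44% of the list, against 0.533% of the 26270 genes tested (0.373% higher and 0.160% lower), so that the count says little about the list as a whole. Above a mean of 10 CPM it was 1 of 23 genes (4.35%), against 0.908% of all such genes. CDH11 (chr16:64943753-65126112, minus strand, 13 exons), the mesenchymal cadherin also known as OB-cadherin, was at 31.0, 25.1 and 24.0 CPM in LK2-ctrl and 69.9, 66.8 and 59.2 CPM in LK2-maspin. Every LK2-maspin library was well above every LK2-ctrl library. It rose 2.45-fold (1.29 ± 0.10 on the log2 scale, 95% interval 1.08 to 1.504, adjusted p = 6.53e-05). CDH11 was called in all 17 settings tried, with an adjusted p of at most 0.00250. It took 2.77% ± 0.566 of the summed cadherin level per kb in LK2-ctrl and 6.997% ± 1.20 in LK2-maspin, so that N-cadherin still led the class with 54.8% ± 1.08 (SD, n = 3). The fibroblast markers, which mark the cells in which CDH11 is best known, summed to 18.5 to 28.7 CPM in LK2-ctrl and 19.0 to 32.7 CPM in LK2-maspin, and none of the 5 was called. LUM, which is one of them, was at 0.948, 1.53 and 0.890 CPM in LK2-ctrl and 1.97, 4.20 and 3.14 CPM in LK2-maspin, without overlap (1.45 ± 0.29, adjusted p = 0.0583). Of the squamous markers, the basal keratin KRT5 rose from a mean of 0.727 to 6.91 CPM (log2 change 3.25 ± 0.23, adjusted p = 4.65e-05). SOX2 was at 530.4, 496 and 474 CPM in LK2-ctrl and 434, 376 and 383 CPM in LK2-maspin, without overlap (-0.33 ± 0.07, adjusted p = 0.0756), and the sum of the 6 squamous markers was 476.8 to 533 CPM and 387 to 442 CPM. The simple epithelial markers summed to 1584 to 1653 CPM in LK2-ctrl and 1787 to 1861 CPM in LK2-maspin, and none of the 4 was called. Log2 changes of KRT8, KRT18 and KRT19 were 0.27, 0.22 and 0.19, without overlap. In the difference between the lines, tested below, 2 of the 4 were called, with the RERF-LC-AI change below the LK-2 change. The part of these markers in the result was not tested.

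The other 40 genes did not pass the test in LK-2 cells, where 4 of the 41 had an unadjusted p under 0.05. With the replicate number as a block, which is no pairing given by the design, CDH1, CDH2, DSG3, DSC2 and PERP were called as well. The intervals below come from the fit without this block. Ranges did not overlap for 6 of the 41 (14.6%), against 11.6% of all genes. Besides CDH11 these were DSG2, DSG3, DSG4, DSC1 and CTNNA2. DSG2, the leading desmosomal cadherin, was at 290.1, 284 and 268 CPM in LK2-ctrl and 291, 295 and 306 CPM in LK2-maspin (log2 change 0.08, 95% interval -0.04 to 0.20). DSC2 was at 188, 204 and 202 CPM and 199.98, 231 and 256 CPM (0.21, 0.02 to 0.40), and its ranges overlapped. DSG3, the desmoglein of basal squamous cells, was at 3.99, 5.01 and 5.12 CPM and 5.15, 7.42 and 8.48 CPM (0.57, 0.17 to 0.98), and its adjusted p was 0.438. For genes at high levels the intervals were narrow enough to limit the size of any change. DSP was at 591, 571 and 558 CPM in LK2-ctrl and 558, 596 and 577 CPM in LK2-maspin, a log2 change of 0.01 with a 95% interval of -0.11 to 0.13. PKP2 was at 72.6, 75.1 and 67.4 CPM and 60.9, 69.4 and 64.7 CPM (-0.29 to 0.01), and EVPL at 69.7, 70.9 and 62.7 CPM and 65.1, 63.6 and 59.4 CPM (-0.25 to 0.03). PKP3 was at 105, 92.9 and 73.2 CPM and 94.96, 85.7 and 78.3 CPM (-0.30 to 0.18), and CDH24 at 32.7, 27.8 and 31.9 CPM in LK2-maspin (-0.24 to 0.12). For E-cadherin the interval was -0.32 to 0.04, for N-cadherin -0.33 to 0.04, for CTNND1 -0.13 to 0.13 and for AFDN -0.08 to 0.16. Libraries of a group varied less in RERF-LC-AI cells (biological coefficient of variation 6.43%) than here (11.7%), so a change of the same size is more readily called there, and counts of called genes in the lines are not to be compared with each other.

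Whether maspin changed a gene differently in the lines was tested as the change in RERF-LC-AI cells minus that in LK-2 cells, in 1 fit of all 12 libraries. SERPINB5 itself averaged 46.5 CPM in LK2-maspin and 512 CPM in LC-AI-maspin. Maspin level, medium, sequencing and pool of clones thus differ together with the line. The paper also reports maspin in both nucleus and cytoplasm in LK2-maspin but mainly in the cytoplasm in LC-AI-maspin. The part of each was not tested. CDH11, DSP, PKP2 and EVPL differed, all 4 with the RERF-LC-AI change below the LK-2 change, or 9.76% of the 41 genes, against 1.76% of the 28123 genes tested (1.35% in this direction and 0.402% in the other). Above a mean of 10 CPM they were 4 of 23 (17.4%), against 3.83%. For PKP2 the difference of changes was -0.54 ± 0.10 on the log2 scale (adjusted p = 0.00619), from a change of -0.68 in RERF-LC-AI cells against -0.14 in LK-2 cells, and this call held in all 20 settings tried. EVPL differed by -0.52 ± 0.11 (adjusted p = 0.0146), with changes of -0.11 and -0.63. DSP differed by -0.44 ± 0.10 (adjusted p = 0.0308), with changes of 0.01 and -0.43. None of these 3 plaque and plakin genes had been called in LK-2 cells. CDH11 had the widest difference, -1.62 ± 0.36 (adjusted p = 0.0225), but its RERF-LC-AI side rests on 29, 18 and 48 counts in LC-AI-ctrl and 18, 44 and 26 in LC-AI-maspin, or 0.603, 0.346 and 1.04 CPM and 0.372, 0.741 and 0.420 CPM, where it was not called. Without LC-AI-ctrl replicate 3 the adjusted p was 0.202 for CDH11, 0.0631 for DSP and 0.0542 for EVPL, and without LC-AI-maspin replicate 3 it was 0.0936, 0.112 and 0.0523. Calls were also lost for CDH11 without LK2-ctrl replicate 2 (0.0515) or LC-AI-maspin replicate 1 (0.0642), and for DSP without LK2-ctrl replicate 2 (0.0781), LK2-maspin replicate 2 (0.0609) or LC-AI-ctrl replicate 2 (0.0818).

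For the other genes called in RERF-LC-AI cells the difference between the lines did not pass the test. The desmosomal cadherin DSC2 changed by 0.65 in RERF-LC-AI cells and had 0.21 in the other line, with a difference of 0.44 (95% interval 0.17 to 0.72, adjusted p = 0.110). LIMA1 differed by -0.31 (-0.50 to -0.12, adjusted p = 0.109) and CDH24 by -0.38 (-0.64 to -0.13, adjusted p = 0.140), neither called. For DSG2, PKP3, CTNND1, NECTIN1, NECTIN2 and NECTIN3 the adjusted p ran from 0.209 to 0.578. DSC3, which was called in neither line, had a difference of 0.52 (0.23 to 0.81, adjusted p = 0.0681).

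Further genes of the same structures were read from lists written out whole. Of 29 other cadherins, protocadherins, FAT, CELSR and calsyntenin genes, 27 were tested in each line, none was called in LK-2 cells and 1 in RERF-LC-AI cells. This was FAT1, a very large cadherin that curbs growth signalling, which was at 117, 136 and 124 CPM in LC-AI-ctrl and 94.5, 102 and 99.7 CPM in LC-AI-maspin, and fell by 0.34 ± 0.05 on the log2 scale (adjusted p = 3.37e-05), a change that differed from that in LK-2 cells by -0.46 ± 0.10 (adjusted p = 0.0162). Of 28 junction partners, all were tested in both lines, with 1 called higher and 6 called lower in RERF-LC-AI cells. Of all genes tested in that line, 10.5% were called, 4.01% higher and 6.53% lower. Among genes with a mean above 10 CPM the share was 21.3%. These lists too were chosen with earlier results known, so their counts are descriptive. The alpha-catenin relative CTNNAL1 fell in RERF-LC-AI cells from 159, 167 and 169.7 CPM to 109, 109 and 110.1 CPM, by 0.59 ± 0.05 (adjusted p = 3.30e-10). The actin crosslinker ACTN4 fell by 0.25 ± 0.04 (adjusted p = 1.51e-04) and CTNNBIP1 by 0.31 ± 0.05 (adjusted p = 1.60e-04). TMEM47, a tetraspan junction protein, rose by 1.56 ± 0.25 (adjusted p = 6.28e-05), from 0.416, 0.731 and 0.647 CPM to 2.11, 1.52 and 1.71 CPM, a low level beside the 22.3, 22.3 and 21.4 CPM of LK2-ctrl. The median change over these lists was -0.01 and -0.08 in RERF-LC-AI cells, and -0.003 and 0.01 in LK-2 cells, on the log2 scale.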

How the data were processed

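Strand-specific libraries of poly(A) RNA, 3 for each of the 4 groups, were sequenced on a NovaSeq system. The authors trimmed reads with Trimmomatic (ver. 0.39) and used BWA (ver. 0.7.17) to map them to GRCh38.p13, with SAMtools 1.10 for the RERF-LC-AI line and 1.12 for the other. Each line has its own table of deposited whole-number counts of mapped reads per gene. The sources used here name no counting tool and no strand setting. The deposited signal columns, which the authors scaled with edgeR 3.16.5 (TMM) or to library totals, were not used. Low counts were mostly even (23.9 to 26.2% odd among counts from 1 to 9), as counting of both mates of most pairs would give. The 646 lines without a symbol, with 0.292 to 0.416% of the counts, were left out.

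Counts were tested with edgeR 4.0.16 (limma 3.58.1, R 4.3.3) by the quasi-likelihood F test over all genes, with TMM factors, filterByExpr at its defaults (a count of 10, a total of 15), which all 41 genes passed in every comparison, and Benjamini-Hochberg adjustment at 0.05. Each line was fitted alone. The difference of changes between the lines and the comparison of the ctrl groups came from 1 fit of all 12 libraries. The SE is the size of the log2 fold change over the square root of F, and intervals are 95%. Printed CPM use TMM factors over all 12 libraries, and CPM per kb is CPM over the length of the MANE Select transcript (GENCODE 44). Values in every library are given for genes called after maspin or between the lines' changes, for the highest of each class per kb in each line, and for the 6 widest differences between the ctrl groups in each direction. Of the further lists, up to 4 called genes with the smallest adjusted p are given. The LK-2 calls of the junction partner list are not reported here.

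The members and lists were chosen with earlier results of these data known. The fits were tested on simulated data, with 50 changed genes of each size. Of 1.25-fold changes, 6% were called in LK-2 cells, 48% in RERF-LC-AI cells, 8% for the difference and 34% in the ctrl comparison. Of 1.5-fold changes the shares were 60%, 84%, 38% and 68%. Changes of these sizes can thus be missed. Alternatives were the likelihood ratio test, DESeq2 1.42.0, other scaling, other filters, the replicate number as a block, a threshold of 0.01 and each library left out in turn. Deviations of equally numbered libraries from their group means correlated at 0.0437, 0.0533 and 0.00168 in RERF-LC-AI and at 0.154, 0.0144 and 0.164 in LK-2 libraries, and the numbers were not taken to pair the samples. Tables and figures were made in matplotlib 3.10.9 and pandas 2.3.3 (Python 3.11.15).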

Additional observations from a re-analysis of the deposited data

Results flagged for a closer look

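Of the 41 junction genes, 4 were set apart because the change after maspin differed between the lines. This was judged by the test of the difference itself, in 1 fit of all 12 libraries. Maspin level, the place of maspin in the cell as the paper reports it, medium, sequencing and pool of clones differ with the line as well. Their part was not tested. The RERF-LC-AI change minus the LK-2 change was -0.54 for PKP2, -0.52 for EVPL, -0.44 for DSP and -1.62 for CDH11, on the log2 scale. PKP2, EVPL and DSP fell in RERF-LC-AI cells and were not called in LK-2 cells, whereas CDH11 rose in LK-2 cells and was not called in RERF-LC-AI cells, where it is barely expressed.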

How the results depend on the processing

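No called gene changed direction under any alternative run. In LK-2 cells CDH11 was called throughout, with 1 higher and 0 lower genes in each alternative except the replicate block. In RERF-LC-AI cells all 12 genes were called again with the likelihood ratio test, DESeq2, no filter and at least 10 counts in every library, and the likelihood ratio test and no filter added CDH3 as a higher gene. There, higher genes numbered 2 in the fit of all 12 libraries, which lost PKP3, NECTIN1 and NECTIN3, and 2 to 4 with 1 library left out, the lowest without LC-AI-ctrl replicate 3, while PPL was added as a lower gene without LC-AI-ctrl replicate 2. NECTIN3 was also lost with RLE factors, NECTIN1 with upper-quartile factors or library size only, and both at an adjusted p under 0.01. For the difference between the lines, library size only gave 1 higher gene (DSC3), an adjusted p under 0.01 left 1 lower gene (PKP2), and leaving out 1 library gave 0 to 1 higher and 1 to 4 lower genes. DESeq2 added CDH24 and LIMA1 to the lower genes. In the ctrl comparison an adjusted p under 0.01 lost CDH18 and DSC1, and DESeq2 and RLE factors called NECTIN1 lower in LK2-ctrl. The causes were not tested.

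With the replicate block, which is no pairing given by the design, 3 genes were higher and 3 lower in LK-2 cells (CDH1, CDH2, DSG3, DSC2 and PERP added), 5 higher and 8 lower in RERF-LC-AI cells (CDH3 added), and 4 higher and 8 lower for the difference between the lines (CDH3, DSC2, DSC3, PKP3, CDH24, CTNND1, NECTIN2 and LIMA1 added); the ctrl comparison had 24 and 6. Over all genes the block gave 693 higher and 497 lower in LK-2 cells, 1598 and 2483 in RERF-LC-AI cells, and 830 and 1443 for the difference. All LK-2 ctrl libraries correlated best with the maspin library of their own number, but LC-AI-ctrl replicate 3 did so with replicate 2 (0.00343).

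Over all genes, counts of higher and lower genes also moved by over 1.5 times. In LK-2 cells they were 98 and 42, but 220 and 94 with the likelihood ratio test, 196 and 84 with DESeq2, 184 and 67 in the fit of all 12 libraries, 144 and 65 with no filter, and 51 and 19 at an adjusted p under 0.01. They fell to 37 and 13, 41 and 11, and 61 and 21 when LK2-ctrl replicate 2, LK2-maspin replicate 2 or LK2-maspin replicate 3 was left out. In RERF-LC-AI cells they were 1010 and 1645, but 411 and 752 in the fit of all 12 libraries, 578 and 1064 at an adjusted p under 0.01, 628 and 1150 without LC-AI-ctrl replicate 3, 695 and 1069 without LC-AI-maspin replicate 3, 1305 and 1388 with upper-quartile factors and 1408 and 1287 with library size only, so that the balance of all genes depends on the scaling, while the junction genes were 4 higher and 7 lower under both, against 4 and 8. For the difference between the lines they were 113 and 381, but 272 and 612 with the likelihood ratio test, 164 and 817 with DESeq2, 72 and 461 with RLE factors, 202 and 408 with library size only, 110 and 586 with no filter, 27 and 169 at an adjusted p under 0.01, and from 37 to 145 and from 215 to 609 with 1 library left out, the lowest without LK2-maspin replicate 2 and LC-AI-maspin replicate 3. In the ctrl comparison library size only gave 11396 and 7053, against 8824 and 8583.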
